A study of Arabidopsis thaliana with 40 samples.

Results

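The 43 glutathione S-transferase (GST) genes of the tau, phi, zeta and theta classes on an Arabidopsis thaliana whole-genome expression array were described. They were chosen by locus code: the tau class genes GSTU1 to GSTU28, the phi class genes GSTF2 to GSTF11 with GSTF13 and GSTF14, the zeta class genes GSTZ1 and GSTZ2, and the theta class gene GSTT1. GSTF12, which belongs with the anthocyanin genes, was left out. Of the theta class only GSTT1 was chosen. All 43 were among the 27826 probe sets of the array, 1 probe set per gene, and no member was dropped by a filter.

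Shoot RNA of soil-grown plants aged 4 weeks (28 days) was hybridized to Affymetrix arrays, 1 array for each of 4 biological replicates in each of 10 groups. The study's title places the lines in a redox-sensitive module that joins cysteine synthase, 2-cysteine peroxiredoxin and cyclophilin 20-3 during the acclimation to high light. The lines were 2cysprx, cyp20-3, oastlB and serat2;1, and the wild type (WT) was grown beside them, all under 8 h of light and 16 h of dark. Each was sampled after 6 h of high light (HL, 800 µmol quanta per square metre per second) or in normal light (NL, 80 µmol quanta per square metre per second). The labels give no alleles, no accession of the wild type and no number of plants per replicate, and they name the tissue as shoot while the design text speaks of leaf material. The values are log2 intensities. A level is therefore a log2 intensity, a difference is a difference between 2 log2 means, and a difference of 1 is a 2-fold change. "Called" below means an adjusted p under 0.05 over all 27826 probe sets.

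GSTs join the tripeptide glutathione to reactive or hydrophobic molecules, and many also act as glutathione-dependent peroxidases or as carriers of small molecules. The tau and phi classes are large in plants and hold the stress- and xenobiotic-inducible enzymes, while the zeta and theta classes are small and occur in animals as well. High light produces reactive oxygen species in chloroplasts, which the ascorbate-glutathione cycle and the peroxiredoxins remove. Glutathione itself is built from cysteine, the product of serine acetyltransferase (SERAT) and O-acetylserine (thiol) lyase (OAS-TL), the enzymes that form cysteine synthase.

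The targeted transcripts were examined first. 2CPA (AT3G11630), one of the genes of 2-Cys peroxiredoxin, had a level of 5.09 to 5.78 on 7 of the 8 arrays labelled 2cysprx, but 9.0 on HL replicate 2, against 10.47 to 11.12 on the WT arrays. CYP20-3 (AT3G62030) lay at 5.97 to 6.77 in cyp20-3, against 10.41 to 10.66 in WT, and OASB (AT2G43750), the gene of plastid OAS-TL B, at 3.44 to 4.79 in oastlB, against 9.01 to 9.28 in WT. SERAT2;1 (AT1G55920) was not lower on the arrays labelled serat2;1, at 6.12 to 6.93, than in WT, at 6.06 to 6.53, so the transcript level does not check that label. Marker genes of roots averaged 2.10 to 2.65 and of flowers 1.90 to 2.60 per array, close to or below the lower quartile of all probe sets, 2.59, while mesophyll markers averaged 12.19 to 12.58, myrosin cell markers 11.98 to 12.50 and guard cell markers 5.68 to 6.16. In such whole-shoot RNA, fewer cells of a type and less RNA per cell cannot be told apart.

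Of the 43 members, 17 were called in at least 1 of 17 comparisons and 26 in none. The array values hold no detection calls. Averaged over the 40 arrays, 13 members lay at or above the median probe set, at 4.75, and 30 below it. Of the 13, 10 were called at least once, and of the 30, 7 were. The like shares among all probe sets, bright or dim, were not counted. These counts therefore do not show whether GSTs differ from the rest of the array.

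In high light against normal light, GSTs moved in both directions. In 2cysprx, 6 of 43 members were called, 4 higher and 2 lower; of all probe sets 8.55% were called, 4.48% higher and 4.08% lower. In cyp20-3, 8 members were called, 5 higher and 3 lower, with 17.8% of all probe sets called, 8.83% higher and 8.99% lower. In oastlB, 11 members were called, 10 higher and 1 lower, with 16.2% of all probe sets called, 7.9% higher and 8.25% lower. In serat2;1, 7 members were called, 5 higher and 2 lower, with 11.4% of all probe sets called, 5.54% higher and 5.9% lower. In WT, 10 members were called, 7 higher and 3 lower, with 19.8% of all probe sets called, 10.3% higher and 9.58% lower. The members' shares called were 14%, 18.6%, 25.6%, 16.3% and 23.3% in this order, close to the share of all probe sets in cyp20-3 and above it in the others, and the difference between the shares was not tested. Their median difference lay between -0.08 in WT and 0.08 in 2cysprx, beside medians of all probe sets from -0.03 to 0.00. The tau class has 28 of the 43 members and the phi class 12. The tau class held 3 of the 4 rises in 2cysprx, 5 of 5 in cyp20-3, 5 of 10 in oastlB, 4 of 5 in serat2;1 and 6 of 7 in WT. The phi class held all 3 falls in cyp20-3 and in WT, 1 of 2 in 2cysprx and in serat2;1, and 0 of 1 in oastlB. In the order 2cysprx, cyp20-3, oastlB, serat2;1 and WT, 14.3%, 17.9%, 21.4%, 17.9% and 21.4% of tau members were called either way. Of phi members, 16.7%, 25%, 25%, 8.33% and 33.3% were.

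Cell type markers also moved with light. Of 4 guard cell markers, KAT1 (AT5G46240), a potassium channel, rose in HL in all 5 genotypes, by 0.50 in oastlB to 0.95 in cyp20-3, while MYB60 (AT1G08810), a transcription factor, fell in cyp20-3 (-0.64 ± 0.16, adjusted p = 0.00472) and oastlB (-0.57 ± 0.16, adjusted p = 0.0138), and the list's median difference was below 0 in every genotype. Of 3 mesophyll markers, RCA (AT2G39730), Rubisco activase, rose in 2cysprx, oastlB, serat2;1 and WT by 0.21 to 0.31, and CAB3 (AT1G29910), an antenna protein gene, rose in 2cysprx (0.44 ± 0.08, adjusted p = 3.51e-04) and WT (0.27 ± 0.08, adjusted p = 0.018). Of 6 root markers, EIR1 (AT5G57090), an auxin carrier, fell in oastlB (-0.45 ± 0.14, adjusted p = 0.0285) and WT (-0.63 ± 0.14, adjusted p = 0.00139). None of the 4 floral and 2 myrosin cell markers was called for light. The part of these shifts in the GST values was not tested.

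**Figure D1:**
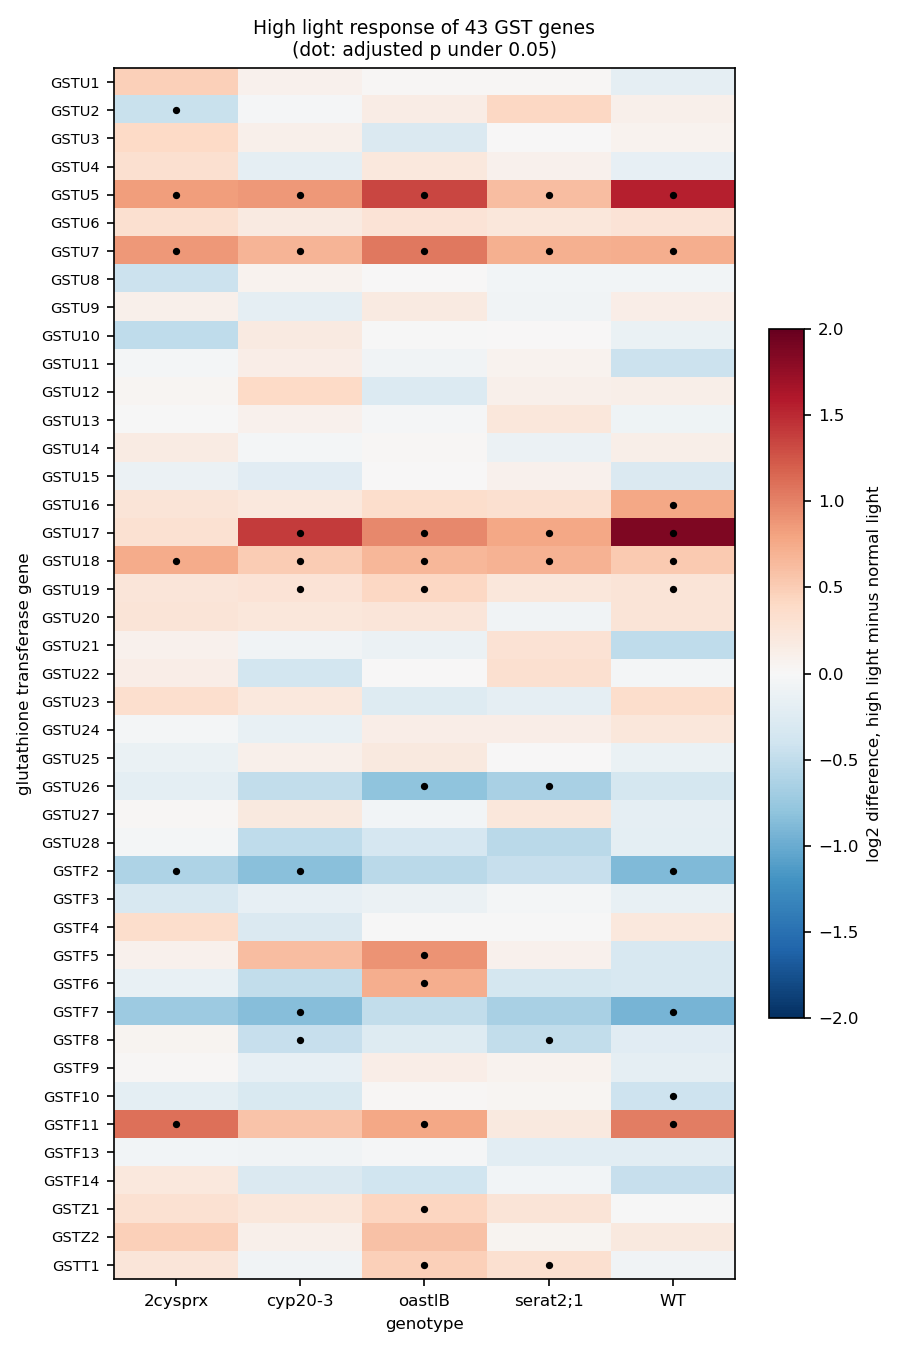
Log2 difference between high light and normal light of each of the 43 GST genes (rows, by class) in each genotype (columns), 4 arrays per group; red is higher in high light, blue lower, and a black dot marks an adjusted p under 0.05. GSTU5, GSTU7 and GSTU18 carry a dot in all 5 columns, and GSTU17 in 4, while most rows carry none.

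GSTU5 (AT2G29450), GSTU7 (AT2G29420) and GSTU18 (AT1G10360), all of the tau class, rose in high light in all 5 genotypes. Of all probe sets, 1.57% were called higher in all 5. No member was called lower in all 5 by limma, and of all probe sets 0.978% were. So small a share can leave no member among 43, so this does not set the GSTs apart from the other probe sets. GSTU17 (AT1G10370), also of the tau class and listed in the reference annotation as ERD9 (early responsive to dehydration), rose in cyp20-3, oastlB, serat2;1 and WT.

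GSTU5 is a tau class enzyme related to the auxin-inducible GSTs of other plants. In 2cysprx its level was 8.12, 8.05, 8.30 and 8.01 on the 4 HL arrays, against 7.15, 7.61, 7.30 and 7.07 on the 4 NL arrays. In cyp20-3 it was 7.81, 7.96, 7.86 and 7.80 in HL, against 7.18, 6.84, 6.98 and 6.94 in NL. In both lines the lowest HL array lay above the highest NL array. In oastlB the level was 8.69, 8.66, 8.62 and 8.54 in HL, against 7.36, 7.44, 7.18 and 7.18 in NL, and in serat2;1 it was 8.26, 7.89, 7.70 and 8.0 in HL, against 7.37, 7.34, 7.26 and 7.38 in NL. In WT it was 8.34, 8.34, 8.49 and 9.35 in HL, against 6.67, 7.32, 6.93 and 7.36 in NL. The light groups did not overlap in any genotype, and WT HL replicate 4 stood above all other arrays. The differences were 0.84 ± 0.16, adjusted p = 4.39e-04 in 2cysprx, 0.87 ± 0.16, adjusted p = 1.03e-04 in cyp20-3, and 1.33 ± 0.16, adjusted p = 8.86e-08 in oastlB. In serat2;1 the difference was 0.62 ± 0.16, adjusted p = 0.0069, and in WT, a 2.95-fold change, 1.56 ± 0.16, adjusted p = 3.98e-09. Without WT HL replicate 4 the WT difference was 1.32 (adjusted p = 7.65e-09).

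GSTU5 differed between genotypes in high light, and in normal light no mutant was called different from WT for it. Its HL mean was 8.12 ± 0.13 in 2cysprx, 8.63 ± 0.06 in oastlB, 7.86 ± 0.08 in cyp20-3 and 7.96 ± 0.23 in serat2;1, against 8.63 ± 0.49 in WT (SD, n = 4 each). Against WT in HL it fell in cyp20-3 (-0.77 ± 0.16, adjusted p = 0.00282) and in serat2;1 (-0.67 ± 0.16, adjusted p = 0.0334). In 2cysprx the HL difference from WT was -0.51 ± 0.16, adjusted p = 0.0905, which missed the threshold although the arrays of the 2 groups did not overlap, and in oastlB it was -0.00 ± 0.16, adjusted p = 0.996. The WT value leans on its replicate 4: without that array the difference was -0.53 (adjusted p = 0.0282) in cyp20-3 and -0.43 (adjusted p = 0.172) in serat2;1. The serat2;1 call was also lost without WT HL replicate 3 or without serat2;1 HL replicate 2, 3 or 4, and both calls were lost with only the compared arrays in the fit (adjusted p up to 0.123 in cyp20-3 and 0.279 in serat2;1 over all settings).

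GSTU7, which lies in the same run of tau genes and codes for an enzyme inducible by xenobiotics, had a level in 2cysprx of 5.37, 5.50, 5.93 and 5.19 in HL, against 4.35, 5.01, 4.41 and 4.78 in NL. In cyp20-3 the level was 5.58, 5.83, 5.78 and 5.42 in HL, against 4.97, 5.45, 4.40 and 5.05 in NL, and in oastlB it was 6.15, 5.75, 5.78 and 6.18 in HL, against 5.03, 5.13, 4.61 and 4.87 in NL. Among these 3 lines only cyp20-3 had an NL array within its HL range. In serat2;1 the level was 5.54, 5.38, 5.88 and 6.20 in HL, against 5.06, 5.11, 5.03 and 4.93 in NL, and in WT it was 5.83, 5.84, 5.82 and 6.40 in HL, against 5.54, 5.02, 4.99 and 5.43 in NL. In serat2;1 and WT the light groups did not overlap. The light difference was 0.86 ± 0.20, adjusted p = 0.00335 in 2cysprx and 1.05 ± 0.20, adjusted p = 1.43e-04 in oastlB, a 2.07-fold change. In serat2;1 it was 0.72 ± 0.20, adjusted p = 0.0127, and in WT 0.73 ± 0.20, adjusted p = 0.0066. In cyp20-3 it was 0.69 ± 0.20, adjusted p = 0.0117. The call was lost in cyp20-3 without NL replicate 3, where the difference was 0.50 (adjusted p = 0.0863), and in serat2;1 without HL replicate 4, where it was 0.56 (adjusted p = 0.0814). The differences between each mutant's response and that of WT ranged from -0.04 to 0.32 and none was called. In NL, GSTU7 fell in 2cysprx relative to WT (-0.61 ± 0.20, adjusted p = 0.0401), with 1 array of 2cysprx inside the WT range. That call was lost without 2cysprx NL replicate 1 or 3 or WT NL replicate 1 or 4, with adjusted p up to 0.145, and with only the compared arrays in the fit (adjusted p = 0.122).

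GSTU18, another tau class gene, rose by 0.51 to 0.74 in the 5 genotypes, and these calls held in every setting tried. In 2cysprx its level was 7.48, 7.43, 7.36 and 7.55 in HL, against 6.73, 6.66, 6.69 and 6.79 in NL, and in cyp20-3 it was 7.14, 7.39, 7.34 and 7.28 in HL, against 6.84, 6.99, 6.68 and 6.59 in NL. In oastlB it was 7.50, 7.62, 7.31 and 7.03 in HL, against 6.50, 6.92, 6.39 and 6.97 in NL. No NL array reached its HL group in these lines. In serat2;1 the level was 7.47, 7.33, 7.59 and 7.53 in HL, against 6.81, 6.54, 6.89 and 6.88 in NL, and in WT it was 7.45, 7.53, 7.56 and 7.23 in HL, against 6.86, 7.06, 6.78 and 6.95 in NL. The light groups stood apart there too. The differences were 0.74 ± 0.12, adjusted p = 6.71e-05 in 2cysprx, 0.51 ± 0.12, adjusted p = 0.00213 in cyp20-3, 0.67 ± 0.12, adjusted p = 8.58e-05 in oastlB, 0.70 ± 0.12, adjusted p = 9.56e-05 in serat2;1 and 0.53 ± 0.12, adjusted p = 0.00129 in WT. The responses of the mutants differed from that of WT by -0.02 to 0.21, each with a standard error of 0.17, and none was called.

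GSTU17, whose enzyme has been linked to light signalling and to drought responses, is the direct neighbour of GSTU18 in the reference gene order, and had the widest range of group means among the members, from 6.77 ± 0.14 in WT in HL down to 4.84 ± 0.22 in cyp20-3 in NL. In 2cysprx its level was 6.45, 6.67, 6.34 and 6.72 in HL, against 5.91, 6.97, 5.97 and 6.11 in NL. There the groups overlapped, since NL replicate 2 was the highest of the 8 arrays. In cyp20-3 the level was 6.46, 5.94, 6.40 and 6.13 in HL, against 5.04, 4.91, 4.88 and 4.52 in NL, and in oastlB it was 6.76, 6.78, 6.43 and 6.54 in HL, against 5.52, 5.49, 6.16 and 5.46 in NL. In serat2;1 it was 6.32, 6.25, 6.27 and 6.52 in HL, against 5.45, 5.65, 5.73 and 5.42 in NL, and in WT it was 6.72, 6.69, 6.69 and 6.97 in HL, against 5.0, 4.42, 4.90 and 5.29 in NL. In these 4 genotypes every HL array lay above every NL array. The gene rose by 1.40 ± 0.18, adjusted p = 6.13e-07 in cyp20-3, by 0.97 ± 0.18, adjusted p = 1.78e-04 in oastlB and by 0.78 ± 0.18, adjusted p = 0.0035 in serat2;1. In WT it rose 3.64-fold (1.86 ± 0.18, adjusted p = 2.13e-09), the largest light difference of any member in any genotype. In 2cysprx the difference was 0.30 ± 0.18, adjusted p = 0.383.

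**Figure D2:**
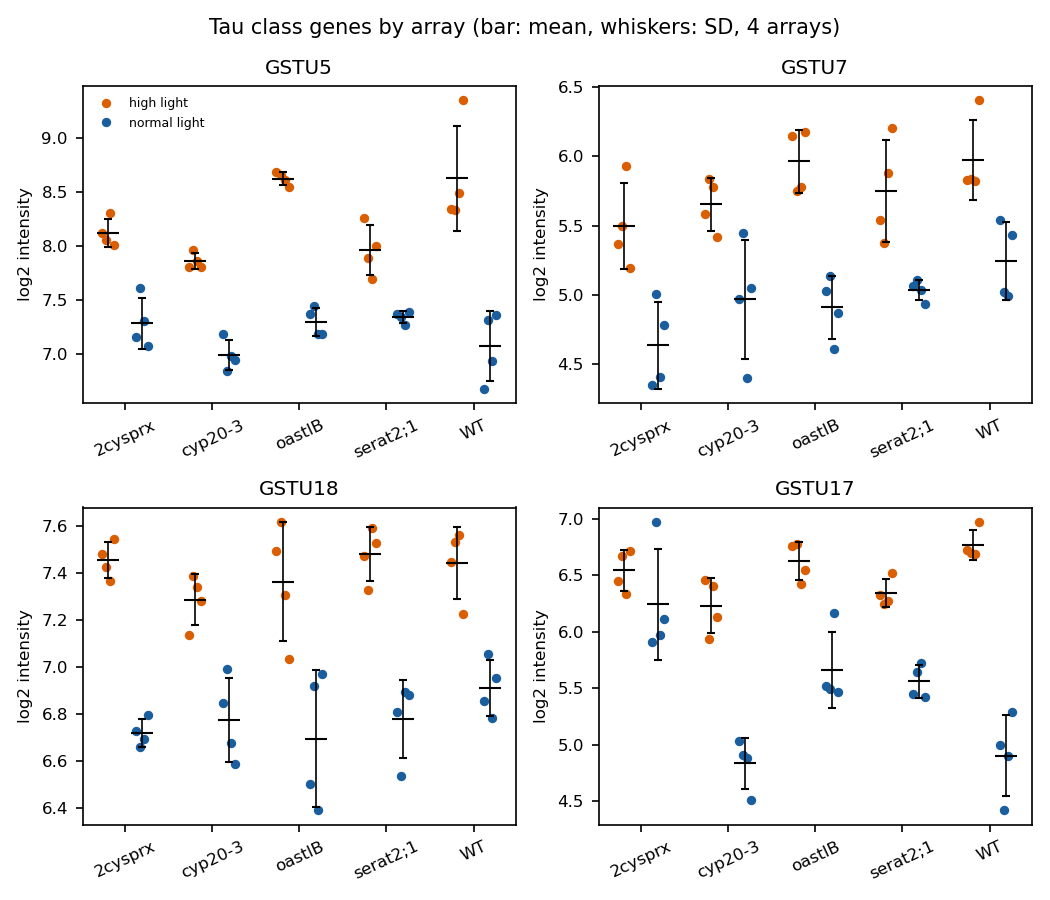
Log2 intensity of GSTU5, GSTU7, GSTU18 and GSTU17 on each of the 40 arrays (points), in high light (orange) and normal light (blue) for each genotype; bars and whiskers are the mean and SD of 4 arrays, and each panel has its own axis, which does not start at 0. The light groups stand apart for GSTU5 and GSTU18 in every genotype, while for GSTU17 the 2cysprx normal light arrays lie between 5.91 and 6.97, against 4.42 to 5.29 in WT.

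Other tau genes were called in fewer genotypes. GSTU19 (AT1G78380), one of the most abundant GST proteins of Arabidopsis leaves, rose by small amounts in oastlB (0.41 ± 0.09, adjusted p = 7.39e-04), WT (0.25 ± 0.09, adjusted p = 0.0379) and cyp20-3 (0.27 ± 0.09, adjusted p = 0.029, with the light groups overlapping). The oastlB call was kept without each single array, but the cyp20-3 call was lost in 5 of 8 such fits and the WT call in 6 of 8, and both were lost with only the compared arrays. In 2cysprx and serat2;1 GSTU19 rose by 0.24 and 0.23, not called. Both were called with the brighter probe sets alone (adjusted p = 0.0345 and 0.0359) and with an intensity trend (adjusted p = 0.038 and 0.0402). GSTU16 (AT1G59700) rose in WT, with a level of 3.35, 3.66, 3.52 and 3.49 in HL, against 2.50, 2.79, 2.57 and 3.10 in NL (0.77 ± 0.13, adjusted p = 2.47e-05). Its mean was higher in HL in the mutants too, not called. It was 3.25 against 3.0 in 2cysprx, 3.21 against 3.0 in cyp20-3, 3.30 against 2.94 in oastlB and 3.32 against 2.99 in serat2;1. No mutant's response was called different from that of WT for GSTU16 or GSTU26. GSTU26 (AT1G17190) moved the other way: in oastlB its level was 4.10, 3.44, 3.47 and 3.74 in HL, against 4.83, 4.64, 4.20 and 4.27 in NL (-0.80 ± 0.22, adjusted p = 0.00804). It also fell in serat2;1 (-0.65 ± 0.22, adjusted p = 0.0459), with overlapping groups and a call lost in 4 of 8 fits that left out 1 array and with only the compared arrays. In the other genotypes its mean was lower in HL too, not called: 4.02 against 4.21 in 2cysprx, 3.68 against 4.17 in cyp20-3 and 4.03 against 4.37 in WT. GSTU2 (AT2G29480), a dim probe set with group means of 1.44 to 1.92, fell in 2cysprx (-0.45 ± 0.15, adjusted p = 0.0493). That call was lost with only the compared arrays, with an intensity trend and in 6 of 8 fits without 1 array. Among these was the fit without HL replicate 2, the array with the high 2CPA level (-0.44 (adjusted p = 0.0959)).

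The phi class gave falls and rises. GSTF2 (AT4G02520), whose protein binds camalexin and other indole compounds, had a level in cyp20-3 of 8.13, 7.86, 8.27 and 7.79 in HL, against 8.71, 9.15, 8.68 and 8.85 in NL, and in WT of 8.08, 7.85, 8.23 and 8.33 in HL, against 8.69, 8.96, 9.35 and 9.05 in NL. It fell in both, and its light groups did not overlap. The difference was -0.84 ± 0.20, adjusted p = 0.00268 in cyp20-3 and -0.89 ± 0.20, adjusted p = 0.00128 in WT. In 2cysprx the level was 8.37, 8.07, 8.32 and 7.94 in HL, against 8.76, 9.01, 8.69 and 8.72 in NL (-0.62 ± 0.20, adjusted p = 0.0488). There it was called lower with all arrays in the fit, but not without any 1 of the 8 arrays (without HL replicate 2, -0.59 (adjusted p = 0.112)). The 2cysprx light groups did not overlap either. In oastlB the level was 7.79, 8.24, 7.96 and 8.19 in HL, against 8.73, 8.53, 8.33 and 8.76 in NL (-0.54 ± 0.20, adjusted p = 0.0633). That difference was not called although these groups too did not overlap, and it was called with only the compared arrays (adjusted p = 0.0421), with the brighter probe sets alone (adjusted p = 0.0314) and with an intensity trend (adjusted p = 0.0346). In serat2;1, where the groups overlapped, the difference of -0.45 was not called, and the difference of each mutant's response from that of WT was not called either.

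GSTF7 (AT1G02920), a pathogen-inducible gene, had a level in cyp20-3 of 4.0, 4.19, 4.37 and 3.37 in HL, against 4.92, 4.75, 4.76 and 4.89 in NL, and in WT of 4.65, 3.97, 4.02 and 5.26 in HL, against 4.89, 5.14, 6.02 and 5.58 in NL. The WT groups overlapped. It fell in both, with differences of -0.85 ± 0.30, adjusted p = 0.0469 in cyp20-3 and -0.93 ± 0.30, adjusted p = 0.0247 in WT, but the first call was lost in 7 of 8 fits without 1 array and the second in 4 of 8 and with only the compared arrays in the fit. In 2cysprx, oastlB and serat2;1 the differences were -0.73, -0.49 and -0.65, none called, although that of 2cysprx was called with only the compared arrays (adjusted p = 0.0398). GSTF8 (AT2G47730), a stress-inducible gene widely used to report salicylic acid and hydrogen peroxide responses, fell in cyp20-3, where its level was 3.91, 4.11, 4.13 and 3.62 in HL, against 4.47, 4.53, 4.33 and 4.30 in NL (-0.46 ± 0.15, adjusted p = 0.0231). It also fell in serat2;1, where it was 3.96, 3.90, 3.80 and 3.53 in HL, against 4.22, 4.40, 4.12 and 4.40 in NL (-0.49 ± 0.15, adjusted p = 0.024). The cyp20-3 call was lost in 4 of 8 fits without 1 array, and the serat2;1 call in 3 of 8 and with only the compared arrays. GSTF10 (AT2G30870), known as ERD13, fell in WT with overlapping groups (-0.41 ± 0.13, adjusted p = 0.0254), a call lost in 4 of 8 such fits and with only the compared arrays.

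GSTF11 (AT3G03190), proposed to take part in the synthesis of aliphatic glucosinolates, was the phi gene with the largest rise. In 2cysprx its level was 5.02, 4.70, 4.31 and 5.29 in HL, against 3.17, 3.81, 4.24 and 3.70 in NL, and in oastlB it was 4.98, 4.76, 4.89 and 4.83 in HL, against 3.77, 4.31, 3.84 and 4.44 in NL. In WT it was 4.63, 5.43, 4.74 and 4.61 in HL, against 3.65, 3.79, 3.86 and 3.98 in NL. In each of the 3 genotypes all HL arrays lay above all NL arrays. It rose by 1.10 ± 0.22, adjusted p = 0.00106 in 2cysprx, by 0.78 ± 0.22, adjusted p = 0.0129 in oastlB and by 1.03 ± 0.22, adjusted p = 7.97e-04 in WT. In cyp20-3 the difference was 0.58 ± 0.22 and in serat2;1 0.20 ± 0.22, neither called. No difference between a mutant's response and that of WT was called for it, including the -0.83 ± 0.32 of serat2;1 (adjusted p = 0.166). The oastlB call was lost without NL replicate 1 or 3, with 0.67 (adjusted p = 0.06) and 0.69 (adjusted p = 0.0512).

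GSTF5 (AT1G02940) and GSTF6 (AT1G02930), which lie next to GSTF7 in the reference gene order, were called higher in oastlB. GSTF6 catalyses a glutathione addition in the synthesis of the defence compound camalexin. Its level in oastlB was 5.44, 5.84, 5.71 and 5.85 in HL, against 5.25, 4.96, 4.71 and 4.99 in NL (0.73 ± 0.22, adjusted p = 0.0175). In WT it was 4.76, 5.16, 4.91 and 5.15 in HL, against 5.04, 5.29, 5.55 and 5.42 in NL (-0.32 ± 0.22, adjusted p = 0.344), with HL and NL arrays overlapping. GSTF5 had a level in oastlB of 3.86, 3.11, 3.69 and 3.46 in HL, against 2.57, 2.22, 3.03 and 2.69 in NL (0.90 ± 0.29, adjusted p = 0.0284), and in WT of 2.27, 2.36, 2.57 and 2.85 in HL, against 3.17, 2.45, 3.28 and 2.45 in NL (-0.33 ± 0.29, adjusted p = 0.496). For both genes every oastlB HL array lay above every oastlB NL array and every WT HL array. The oastlB call was lost without NL replicate 3 or HL replicate 4 for GSTF6, and in 4 of 8 fits without 1 array for GSTF5. In cyp20-3 GSTF5 had a level of 3.17, 2.94, 3.04 and 2.86 in HL, against 2.40, 2.34, 2.43 and 2.40 in NL. These groups did not overlap either. Their difference of 0.61 was not called, but it was with only the compared arrays (adjusted p = 0.00274). The response of oastlB minus that of WT was 1.06 ± 0.31, adjusted p = 0.0564 for GSTF6 and 1.22 ± 0.41, adjusted p = 0.1 for GSTF5, neither of them called. That of GSTF6 was called in other settings, with only the compared arrays (adjusted p = 0.0325), the brighter probe sets alone (adjusted p = 0.0238) or an intensity trend (adjusted p = 0.0348). GSTF6 and GSTF7 code for closely similar proteins, and how far their probes could pick up each other's transcript was not tested.

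**Figure D3:**
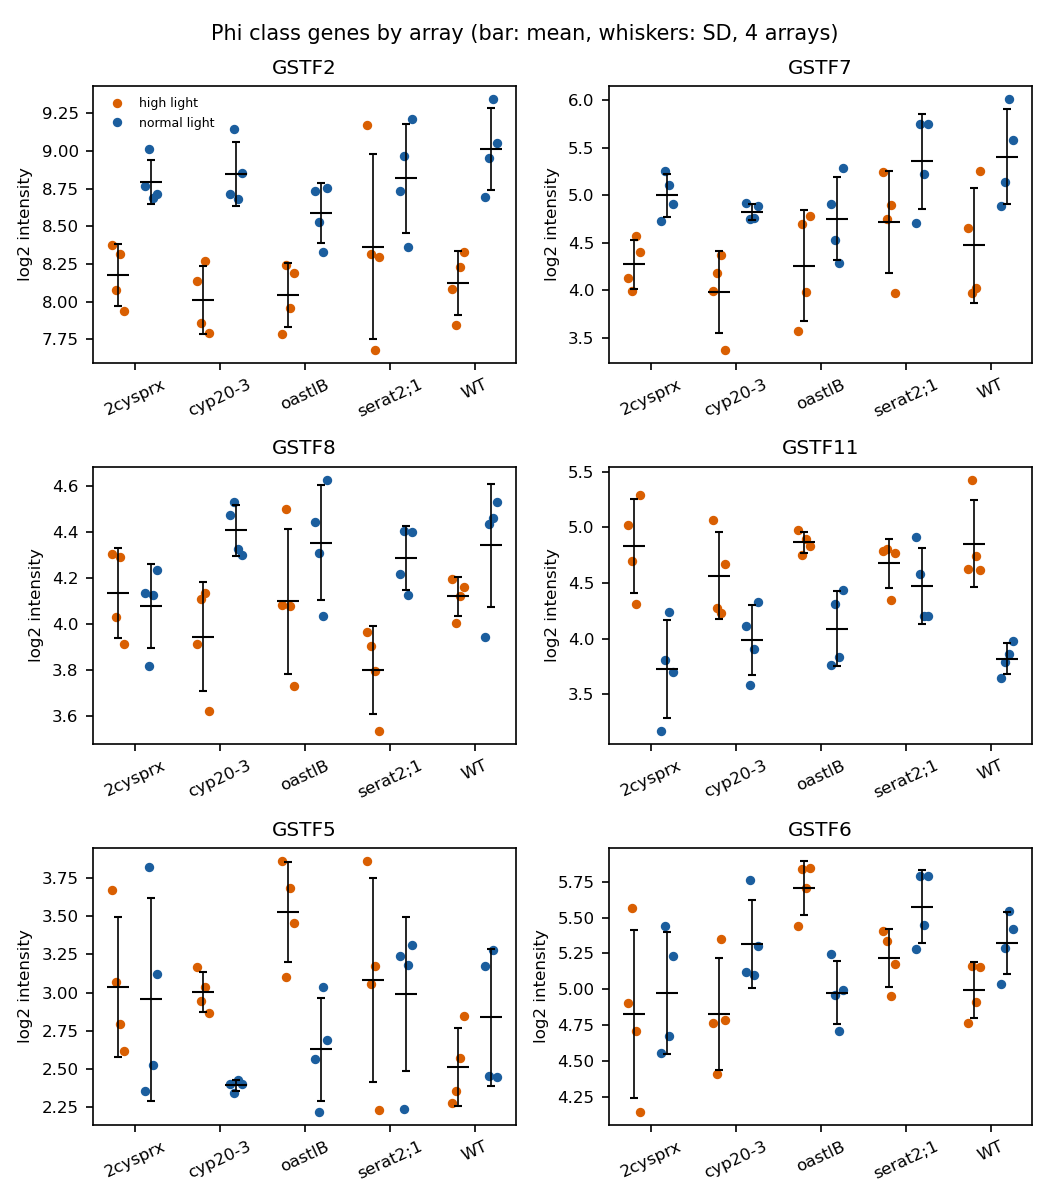
Log2 intensity of 6 phi class genes on each of the 40 arrays (points), in high light (orange) and normal light (blue) for each genotype; bars and whiskers are the mean and SD of 4 arrays, and each panel has its own axis, which does not start at 0. GSTF2 is lower in high light with no overlap in every genotype but serat2;1, though not called in oastlB, GSTF11 is higher in 2cysprx, oastlB and WT, and GSTF5 and GSTF6 are higher in oastlB, where GSTF6 spans 5.44 to 5.85 in high light.

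GSTZ1 (AT2G02390), the zeta class enzyme maleylacetoacetate isomerase of tyrosine breakdown, and GSTT1 (AT5G41210), a theta class enzyme with glutathione peroxidase activity found in peroxisomes, moved by less than 2-fold. GSTZ1 in oastlB had a level of 7.96, 7.87, 8.03 and 7.94 in HL, against 7.72, 7.56, 7.14 and 7.67 in NL (0.43 ± 0.10, adjusted p = 0.00268). GSTT1 in oastlB had a level of 5.69, 5.62, 5.65 and 5.65 in HL, against 5.21, 5.12, 5.08 and 5.33 in NL (0.47 ± 0.11, adjusted p = 0.00131), and rose in serat2;1 too (0.32 ± 0.11, adjusted p = 0.0433). Both genes had no overlap between lights in oastlB. In WT the light difference was -0.01 ± 0.10 for GSTZ1 and -0.08 ± 0.11 for GSTT1, neither called. GSTZ1 was also higher in HL in the other mutants, not called. Its difference was 0.30 in 2cysprx and 0.26 in serat2;1, and its cyp20-3 mean was 7.98 in HL against 7.75 in NL. With the brighter probe sets alone it was called in 2cysprx (adjusted p = 0.0267) and serat2;1 (adjusted p = 0.0496), and with an intensity trend in 2cysprx (adjusted p = 0.0358). The oastlB call of GSTZ1 was lost with only the compared arrays in the fit (adjusted p = 0.0843), and the serat2;1 call of GSTT1 in that fit, with an intensity trend and in 7 of 8 fits without 1 array.

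In normal light, at most 3 of the 43 members were called between a mutant and WT. All 4 mutants were set against the same WT arrays, so these comparisons are not independent of each other. In 2cysprx, 3 of 43 members were called, 1 higher and 2 lower, with 10.1% of all probe sets called. In oastlB, 2 members were called, 1 each way, with 3.42% of all probe sets. In serat2;1, 1 member was called higher, with 2.42% of all probe sets. In cyp20-3 limma called no member, 2 had an unadjusted p under 0.05, and 0.0467% of all probe sets were called. The members' shares called were 6.98% in 2cysprx, 4.65% in oastlB, 2.33% in serat2;1 and 0% in cyp20-3. How far they differ from the shares of all probe sets was not tested. Both myrosin cell markers, the myrosinases TGG1 (AT5G26000) and TGG2 (AT5G25980), were lower in 2cysprx in NL (-0.23 ± 0.06, adjusted p = 0.0129 and -0.32 ± 0.07, adjusted p = 0.00343), with no overlap with WT. Their mean was 11.98 to 12.20 per array in 2cysprx, against 12.28 to 12.45 in WT, and their part in the 2cysprx values was not tested. No other marker was called in NL.

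GSTU17 was higher than in WT in 3 of the 4 mutants grown in normal light. The NL arrays of 2cysprx, at 5.91 to 6.97, of oastlB, at 5.46 to 6.16, and of serat2;1, at 5.42 to 5.73, all lay above the WT range of 4.42 to 5.29, while those of cyp20-3, at 4.52 to 5.04, fell within it. In 2cysprx the NL level rose 2.53-fold over WT (1.34 ± 0.18, adjusted p = 5.39e-06). In oastlB it rose by 0.76 ± 0.18, adjusted p = 0.0144 and in serat2;1 by 0.66 ± 0.18, adjusted p = 0.0462, and in cyp20-3 the difference was -0.07 ± 0.18, adjusted p = 0.957. The 2cysprx value was 1.10 (adjusted p = 4.87e-05) without its high NL replicate 2. The oastlB call was lost without its high NL replicate 3, with 0.59 (adjusted p = 0.108), and without WT NL replicate 2, with 0.60 (adjusted p = 0.0867). The serat2;1 call was lost in 7 of 8 fits without 1 array, and both were lost with only the compared arrays in the fit. In order of NL mean the mutants ran 2cysprx (6.24 ± 0.49), oastlB (5.66 ± 0.34), serat2;1 (5.56 ± 0.15) and cyp20-3 (4.84 ± 0.22), and WT (4.90 ± 0.36) lay between the last 2. The arrays of 2cysprx and oastlB overlapped, as did those of oastlB and serat2;1 and those of cyp20-3 and WT. In HL no mutant was called different from WT for GSTU17.

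The same gene gave the largest difference in light response. The response of 2cysprx, 0.30, minus that of WT, 1.86, was -1.56 ± 0.26, adjusted p = 1.64e-04, and it stayed called without each single array and in every other setting tried (adjusted p at most 0.0093). For serat2;1, with a response of 0.78, it was -1.08 ± 0.26, adjusted p = 0.0209, and -1.02 (adjusted p = 0.0503) without WT HL replicate 4. For oastlB it was -0.90 ± 0.26, adjusted p = 0.0512 and for cyp20-3 -0.47 ± 0.26, adjusted p = 0.607, neither called. The HL levels of 2cysprx and WT, at 6.34 to 6.72 and 6.69 to 6.97, overlapped, so the smaller response of 2cysprx lay beside its higher NL level. GSTU18, the neighbour, differed from WT by -0.19 ± 0.12 in 2cysprx in NL and was not called.

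**Figure D4:**
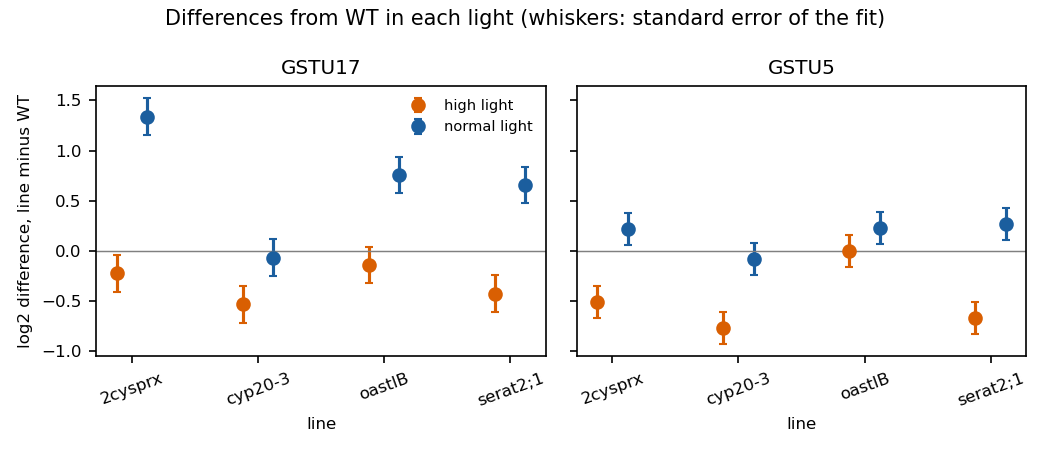
Log2 difference from WT of GSTU17 and GSTU5 in each mutant line, in high light (orange) and normal light (blue); points are differences between means of 4 arrays, whiskers the standard error of the fit, and the grey line marks no difference. GSTU17 is above WT in normal light in 2cysprx (1.34), oastlB and serat2;1, and GSTU5 is below WT in high light in cyp20-3 (-0.77) and serat2;1 (-0.67).

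GSTZ1 was lower than WT in normal light in 2 mutants. Its NL level was 7.40, 7.62, 7.47 and 7.73 in 2cysprx and 7.72, 7.56, 7.14 and 7.67 in oastlB, against 7.89, 8.16, 7.88 and 8.09 in WT. No array of either mutant reached the WT range. It fell in both, with differences of -0.45 ± 0.10, adjusted p = 0.00295 in 2cysprx and -0.48 ± 0.10, adjusted p = 0.00521 in oastlB. In serat2;1 the difference was -0.34 ± 0.10, adjusted p = 0.0711 and in cyp20-3 -0.26 ± 0.10, adjusted p = 0.415, neither called, although their arrays also lay below all 4 WT arrays. The oastlB call was lost without NL replicate 3, the lowest array, with -0.35 (adjusted p = 0.0523), and both calls were lost with only the compared arrays in the fit (adjusted p up to 0.0882 in 2cysprx and 0.218 in oastlB over all settings). In HL the 5 genotype means lay between 7.86 and 7.99 and no mutant was called.

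**Figure D5:**
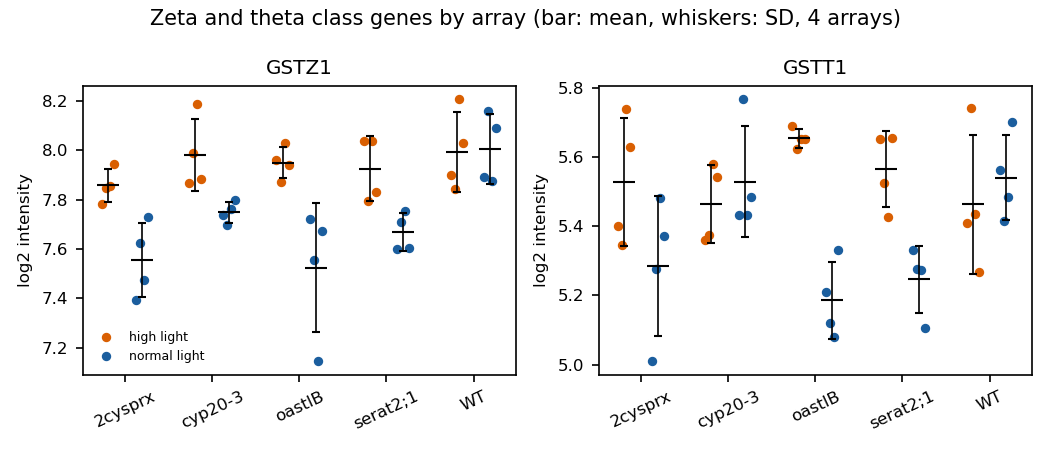
Log2 intensity of GSTZ1 and GSTT1 on each of the 40 arrays (points), in high light (orange) and normal light (blue) for each genotype; bars and whiskers are the mean and SD of 4 arrays, and each panel has its own axis, which does not start at 0. The normal light arrays of all 4 mutants lie at or below 7.80 for GSTZ1, against 7.88 to 8.16 in WT.

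In high light, at most 1 member was called between each mutant and WT, and 1 member is 2.33% of the 43. In cyp20-3 the 1 call, lower, was GSTU5, with 2.24% of all probe sets called, and in serat2;1 it was GSTU5 again, with 0.956%. In 2cysprx limma called 0 members, 5 had an unadjusted p under 0.05, and 2.21% of all probe sets were called. In oastlB it called 0, with 3 at an unadjusted p under 0.05 and 0.855% of all probe sets called. The largest difference in oastlB was that of GSTF5, 1.01 ± 0.29, adjusted p = 0.0857. Among the markers only CAB3 was called in HL, lower in cyp20-3 (-0.40 ± 0.08, adjusted p = 0.00318) and in oastlB (-0.40 ± 0.08, adjusted p = 0.0114), with no overlap with WT, and its part in the GST values was not tested.

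For the light responses as such, 2 members were called in 2cysprx, both with a smaller response than WT, beside 6.09% of all probe sets, and 2 in serat2;1, both smaller, beside 2.29%. In oastlB 1 member was called, with a larger response, beside 2.8% of all probe sets. In cyp20-3 limma called 0 members, 4 had an unadjusted p under 0.05, and 0.855% of all probe sets were called. GSTU5 responded less in 2cysprx, with a difference of -0.72 ± 0.22, adjusted p = 0.0473, and in serat2;1, with -0.94 ± 0.22, adjusted p = 0.0205. In cyp20-3 the difference was -0.69 ± 0.22, adjusted p = 0.194 and in oastlB -0.23 ± 0.22, adjusted p = 0.689. The 2cysprx call was lost in 8 of 16 fits without 1 array, among them those without 2cysprx HL replicate 2 (-0.70 (adjusted p = 0.0807)) and without WT HL replicate 4 (-0.48 (adjusted p = 0.14)). The serat2;1 call was lost without WT NL replicate 1, with -0.81 (adjusted p = 0.0571), and without serat2;1 HL replicate 3, with -0.85 (adjusted p = 0.0546). These 2 calls and that of GSTT1 were lost with only the compared arrays in the fit. GSTT1 was the member with the larger response in oastlB: its oastlB levels stand above, and in WT it was 5.41, 5.74, 5.44 and 5.27 in HL, against 5.56, 5.42, 5.48 and 5.70 in NL. The difference between the responses was 0.55 ± 0.15, adjusted p = 0.0378, and the call was lost in 10 of 16 fits without 1 array, with adjusted p up to 0.0986. The larger response of oastlB lay beside a lower NL level. Its NL arrays, at 5.08 to 5.33, were all below those of WT, at 5.42 to 5.70. That NL difference of -0.35 was not called, but it was with the brighter probe sets alone (adjusted p = 0.0199). In HL the difference from WT was 0.19, not called. Of the markers, EIR1 had a higher response in 2cysprx (0.78 ± 0.20, adjusted p = 0.015) and CAB3 a lower one in oastlB (-0.42 ± 0.12, adjusted p = 0.0428).

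The 26 members not called in any comparison with all arrays and probe sets in the fit included both bright and dim probe sets. GSTU20 (AT1G78370), which interacts with a jasmonate-amino acid synthetase in far-red light signalling, had group means of 9.97 to 10.48. GSTF9 (AT2G30860) had group means of 10.92 to 11.12. Both were called for light in WT with the brighter probe sets alone and with an intensity trend: GSTU20 by 0.26 (adjusted p = 0.0388 and 0.0404) and GSTF9 by -0.18 (adjusted p = 0.0449 and 0.0432). GSTU27 (AT3G43800) had group means of 6.30 to 6.54. The detoxification genes GSTU24 (AT1G17170) and GSTU25 (AT1G17180), known for strong induction by xenobiotics and oxylipins, had group means of 2.01 to 2.35 and of 1.83 to 2.15, below the lower quartile of all probe sets, and their smallest adjusted p was 0.384 and 0.493 over the 17 comparisons. GSTU13 (AT1G27130), which acts in indole glucosinolate metabolism, had group means of 4.38 to 4.61.

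Members that lie side by side in the genome were not all called alike, and differences between neighbours were not tested. In the gene order of the TAIR10.1 reference, 29 members lie in 9 groups of neighbours with at most 1 protein-coding gene between them. The longest holds GSTU7, GSTU6 (AT2G29440), GSTU5, GSTU4 (AT2G29460), GSTU3 (AT2G29470), GSTU2 and GSTU1 (AT2G29490). Of these, GSTU5 and GSTU7 rose in all 5 genotypes, and GSTU1, GSTU3, GSTU4 and GSTU6 were called in no comparison. Group means of those 4 were 1.27 to 2.29, below the lower quartile of all probe sets, 2.59. The missing calls therefore do not show that they stayed unchanged. GSTU18 and GSTU17 form a pair, both called higher in 4 genotypes. In the run GSTF7, GSTF6, GSTF5, GSTF4 (AT1G02950), GSTF7 was called lower in cyp20-3 and WT, GSTF6 and GSTF5 higher in oastlB, and GSTF4 in none. Whether probes of such neighbours cross-hybridize was not tested.

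Genes around the GSTs were read from 4 lists. The first held 9 further GST genes, of other classes or of the theta class. Of these, 2 rose in 2cysprx in HL, 3 in cyp20-3, 4 in oastlB, 3 in serat2;1 and 3 in WT. The 1 that fell was GSTT2 (AT5G41240), a theta class gene, in oastlB. DHAR1 (AT1G19570), a dehydroascorbate reductase that regenerates ascorbate with the help of glutathione, rose by 0.86 ± 0.14, 0.96 ± 0.14, 1.32 ± 0.14, 0.78 ± 0.14 and 0.68 ± 0.14 in this order. DHAR2 (AT1G75270) rose by 1.40 ± 0.17 in WT, but its difference in 2cysprx was 0.31, and the response minus that of WT was -1.09 ± 0.24, adjusted p = 0.00403. Of 4 genes of glutathione synthesis and reduction none rose in HL in any genotype, while 1 fell in 2cysprx, 2 in cyp20-3, 3 in oastlB, 2 in serat2;1 and 3 in WT. GSH1 (AT4G23100), glutamate-cysteine ligase, was among them in all 5, with -0.27 ± 0.07 in 2cysprx and -0.29 ± 0.07 in WT, and GR (AT3G54660), an organellar glutathione reductase, had the largest difference, -0.50 ± 0.08 in serat2;1.

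Of 6 genes of vacuolar transport and breakdown of glutathione conjugates, ABCC2 (AT2G34660), a vacuolar conjugate pump, rose in cyp20-3 (0.75 ± 0.15) and oastlB (0.77 ± 0.15), and CAD1 (AT5G44070), phytochelatin synthase, fell in oastlB (-0.34 ± 0.11) and WT (-0.32 ± 0.11). Of 13 genes of TGA factors and the detoxification genes activated with them, 2 rose in HL in each genotype, and 1 fell in each of cyp20-3, serat2;1 and WT. NAC032 (AT1G77450), a stress-inducible transcription factor, rose in all 5, by 1.31 ± 0.16 in 2cysprx, 1.30 ± 0.16 in cyp20-3, 1.70 ± 0.16 in oastlB, 1.0 ± 0.16 in serat2;1 and 1.12 ± 0.16 in WT. In NL, 3 of the 13 fell in 2cysprx relative to WT, with NAC102 (AT5G63790) lowest (-1.06 ± 0.14, adjusted p = 3.83e-06). NAC102 was also lower in NL in oastlB (-0.68 ± 0.14, adjusted p = 0.00465) and serat2;1 (-0.57 ± 0.14, adjusted p = 0.0235). For the light response minus that of WT, 1 of the 13 was called higher in 2cysprx, and 1 of the 9 further GST genes in oastlB. From the other lists in NL, 2 of the 9 GST genes and 1 of the 6 conjugate genes were called lower in 2cysprx, beside 10.1% of all probe sets called. There 1 of the 4 glutathione genes was higher, and 1 of the 9 was lower in oastlB. Against WT in HL, 2cysprx had 1 of the 9 lower, and 1 of the 6 and 1 of the 13 higher. For light, by genotype, 4.48% to 10.3% of all probe sets were called higher and 4.08% to 9.58% lower. These lists, like the members, were drawn up with earlier results of these data known, and describe only the genes they hold.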

How the data were processed

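The authors deposited log2 intensity values; the submitters' processing notes name RMA (version not given in the sources used here), a method that corrects background, normalizes by quantiles and summarizes probes. Each of the 40 columns was tied by its label to 1 sample. Pearson's r between arrays was 0.973 to 0.993, and no 2 arrays held identical values. Arrays give no counts, so their number limits the precision. The labels call the replicates biological but name no plants.

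With limma 3.58.1 (R 4.3.3), 1 linear model was fitted to the 27826 probe sets with 10 group means (30 residual degrees of freedom), with moderated standard errors and Benjamini-Hochberg adjustment over all probe sets within each of 17 comparisons. No probe set was filtered. The method was tested on simulated data. Members and lists were chosen with earlier results of these data known. The rule for statistics took members called with no overlap between groups (for a difference between responses, if called), up to 8 each way per light response, 6 per mutant and light and 4 per response. Statistics of called members whose groups overlap and of comparisons that were not called were added after their values were seen. Values by array are given for members that changed at least 2-fold, or the 2 with the largest change where none did; other members, among them GSTU18, GSTU26, GSTF2, GSTF5, GSTF6, GSTF7 and GSTF8, were added after their values were seen. Alternatives were a replicate block, the compared arrays alone, quantile normalization, brighter probe sets alone, an intensity trend and leaving out each array. Symbols and gene order came from the TAIR10.1 RefSeq table, which held all 43 members; coordinates are not given, since no source names the genome build used for the probe sets.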

Additional observations from a re-analysis of the deposited data

Results flagged for a closer look

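Among 130 sets of 4 arrays (13 members in 10 groups), 9 held an array set apart from the others by Dixon's criterion, and chance sets 1 apart in about 1 in 20. In WT in HL, replicate 4 was the highest for GSTU5 (9.35, others 8.34 to 8.49), GSTU7 (6.40, others 5.82 to 5.84) and GSTU17 (6.97, others 6.69 to 6.72); it was the highest of its 4 arrays for 16 of the 43 members and for 25.5% of all probe sets. GSTU17 on oastlB NL replicate 3 was 6.16, with the others at 5.46 to 5.52. GSTF5 on serat2;1 NL replicate 2 was 2.24, with the others at 3.18 to 3.31. GSTF8 on WT NL replicate 1 was 3.94, with the others at 4.43 to 4.53. GSTF11 was 4.34 on serat2;1 HL replicate 3, with the others at 4.77 to 4.81, and 5.43 on WT HL replicate 2, with the others at 4.61 to 4.74. GSTT1 on cyp20-3 NL replicate 2 was 5.77, with the others at 5.43 to 5.49.

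The test of the difference between light responses itself was passed 5 times. Relative to WT, the response of GSTU5 differed by -0.72 in 2cysprx and by -0.94 in serat2;1, that of GSTU17 by -1.56 in 2cysprx and by -1.08 in serat2;1, and that of GSTT1 by 0.55 in oastlB. All 5 rest on the same 8 WT arrays.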

How the results depend on the processing

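No result reversed its direction in any setting. Of the 55 named values, 55 stayed called after quantile normalization, 53 with an intensity trend, 51 with the replicate block, 36 with only the compared arrays in the fit, and 43 of the 43 bright enough with the brighter probe sets alone. RMA already normalizes by quantiles, and the medians of the deposited arrays ran from 4.7446 to 4.745. The quantile setting could therefore change little, and its result is no check of the calls. Leaving out 1 array kept 372 of 480 calls and lost 108.

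With only the compared arrays, counts of members called were 4 for light in serat2;1 (7 with all arrays), 7 for light in WT (10), 2 for 2cysprx in NL (3), where GSTU7 and GSTZ1 were lost and GSTU8 was gained, 0 for oastlB in NL (2), 0 for serat2;1 in NL (1), 0 for cyp20-3 in HL (1), 0 for serat2;1 in HL (1), 1 for the response of 2cysprx (2) and 1 for that of serat2;1 (2). For the response of oastlB, GSTF6 was called in place of GSTT1. This fit has fewer arrays to estimate the spread. With the brighter probe sets alone and with the intensity trend they were 2 and 2 for serat2;1 in NL, where GSTZ1 joined GSTU17, 1 and 1 for 2cysprx in HL (GSTU5), and 5 and 4 for the response of oastlB (1), where GSTF6, GSTF9 and GSTU17 joined GSTT1 in both and GSTZ1 in the first. The cause of these gains was not tested.

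The replicate block lost the light calls of GSTF2 in 2cysprx (adjusted p = 0.056) and of GSTF7 in cyp20-3 (adjusted p = 0.0539), and gave 0 members for serat2;1 in NL, 1 for the response of 2cysprx and 2 for that of oastlB, where GSTF6 was called (adjusted p = 0.0455). The replicate numbers showed no strong pairing of the arrays. Deviations of same-numbered arrays correlated between -0.112 and 0.116, and in none of 13 comparisons did every pair exceed 0.1. With 4 pairs per comparison, a weak pairing could be missed.

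Without 1 array, the counts were 4 to 8 for light in 2cysprx, 5 to 9 in cyp20-3, 9 to 12 in oastlB, 4 to 8 in serat2;1 and 7 to 11 in WT. In NL they were 2 to 5 for 2cysprx, 0 for cyp20-3, 0 to 3 for oastlB and 0 to 1 for serat2;1, and in HL 0 for 2cysprx, 1 for cyp20-3, 0 for oastlB and 0 to 1 for serat2;1. For responses they were 1 to 3 for 2cysprx, 0 for cyp20-3, 0 to 2 for oastlB and 1 to 2 for serat2;1. The oastlB count in NL was 0 without oastlB NL replicate 3, and the serat2;1 light count was 4 without HL replicate 4.

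With no detection calls, how far a probe set stands above background cannot be given, and 30 of the 43 members lie below the median probe set. The labels and files name no batch.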
